A study of Mus musculus with 49 samples.

Results

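The effect of the Elf4 W250S allele was compared between mouse naive CD4 T cells and the same cell type after 48 h of culture towards non-pathogenic Th17 cells, gene by gene, to ask which differences from wild type (WT) persisted, vanished or appeared after activation. The genes considered are those listed in both deposited tables of expression, 17787 of the 21191 genes in either table. Of these, 13493 reached 1 CPM (a read count scaled to the reads of its library) in at least 3 of the 12 libraries and were tested. There were 4 groups of 3 libraries, all of C57BL/6 mice: WT and W250S naive CD4 T cells, untreated at 0 h, and WT and W250S cells differentiated for 48 h with IL-6 and TGF-beta. The labels give the genotype as WT or Elf4 W250S and name no Cre, transgene or pooling. The library names of naive and cultured cells carry different source numbers, so a cultured library has no naive partner from the same source. Nothing in the labels states the age or sex of the animals, or that libraries of a group came from separate animals, so a p-value here measures the spread between libraries.

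Elf4 encodes a transcription factor of the ETS family, and W250S replaces a tryptophan by a serine in the protein. ELF4 is known for holding T cells in quiescence and for supporting interferon responses, and it restrains inflammatory gene expression. Naive CD4 T cells carry a low standing level of interferon-stimulated genes and little metabolic activity. IL-6 with TGF-beta, together with stimulation of the T cell receptor in such cultures, drives division, amino-acid uptake and the Th17 programme with its cytokines Il17a and Il17f, and the addition of IL-23 or IL-1 is what makes a Th17 culture pathogenic.

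Libraries of 1 group correlated at 0.989 to 0.9968 across genes, and no depth in reads is given for the 12 libraries. The summed CPM of 9 naive-state markers was 4160 to 4910 in naive and 694 to 995 in cultured libraries, and that of 7 Th17 markers was 10.9 to 13.7 and 251 to 322. Of the 14 myeloid markers, 3 were in both tables and summed to 1.46 to 1.7 CPM in naive WT and 0.581 to 0.753 CPM in naive W250S, and to 1.45 to 1.54 and 0.704 to 1.03 CPM in cultured libraries. Of the 10 B cell markers, 5 were in both and summed to 224 to 261 CPM in naive and 27.4 to 35.4 CPM in cultured libraries, nearly all of it Ighm. Elf4 itself (chrX:48411049-48463132, GRCm38.p6) showed no difference between genotypes with an adjusted p below 0.05 in either state. Its level was 250, 230 and 224 CPM in naive WT libraries and 265, 250 and 278 CPM in naive W250S libraries (0.17 ± 0.10 SE on the log2(CPM + 1) scale, adjusted p = 0.45). In culture it was 80.5, 87.9 and 88.3 CPM in WT and 91.9, 94.8 and 102 CPM in W250S, with all W250S libraries above all WT libraries (0.17 ± 0.06, adjusted p = 0.114). A single amino-acid change need not alter the transcript, so its level does not check the genotype labels.

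Every effect below is W250S minus WT on the log2(CPM + 1) scale, which understates ratios of low genes, and a call is a p below 0.05 in limma after Benjamini-Hochberg adjustment. In naive cells 513 of 12384 genes were called (4.14%), 407 higher (3.29%) and 106 lower (0.856%) in W250S. In cultured cells 906 of 12807 were called (7.07%), 529 higher (4.13%) and 377 lower (2.94%). The difference of the effects, cultured minus naive, was called for 129 of 13493 genes (0.956%), 23 with a positive and 106 with a negative difference. At an unadjusted p below 0.05 the counts were 2075, 3397 and 2027. The balance of directions rested on the scaling of the libraries: with median-ratio scaling the naive calls were 209 higher and 169 lower, the cultured calls 796 and 910, and the calls for the difference 59 and 99. With scaling by trimmed mean of M values (TMM) they were 214 and 174, 787 and 932, and 58 and 100. Centred on the median gene, they were 192 and 205, 832 and 892, and 71 and 85. The excess of higher calls in naive cells is therefore not read as a result.

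The effects in the 2 states were related, and few genes were called in both. Among the 11498 genes tested in both states, 59.6% had effects of the same sign, and the effects correlated at r = 0.249 across genes, which are not independent replicates. Of the members, 511 were called in naive cells and 858 in culture. Tested in both states, and so able to be called in both, were 421 of the 511 and 769 of the 858. Those called in both numbered 94, which is 18.4% of all the naive calls and 11% of all the cultured ones. Of these 94, 90 had the same direction and are termed persisting (57 higher, 33 lower in W250S), and 4 had opposite directions and are termed reversed. Genes called in naive cells only, with a called difference of effects, are termed vanished and numbered 64 (55 higher, 9 lower). Genes called in culture only, with a called difference, are termed appeared and numbered 41 (12 higher, 29 lower). A further 1076 genes were called in 1 state without a called difference, 353 in naive cells and 723 in culture, and for these the data do not place the effect in either state. In 16 genes the difference was called and neither effect was.

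**Figure D1:**
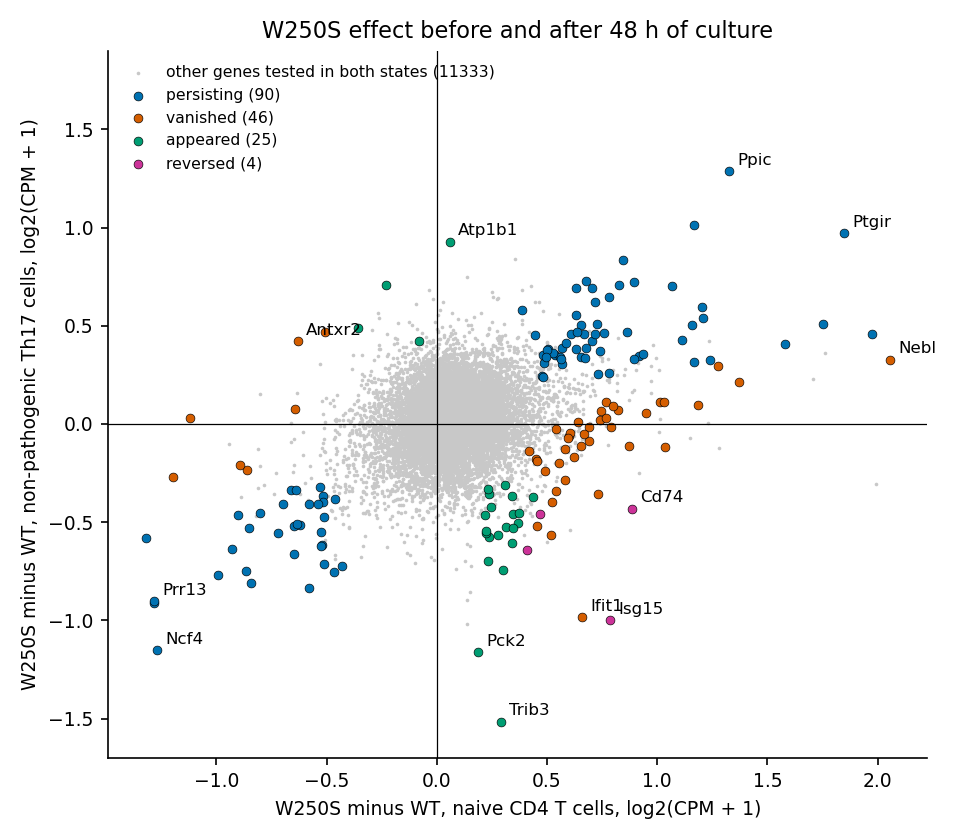
W250S minus WT in naive cells (horizontal axis) against W250S minus WT in non-pathogenic Th17 cells (vertical axis), both in log2(CPM + 1), for the 11498 genes tested in both states. Each point is a gene; the 90 persisting genes lie in the upper right and lower left, the 46 vanished genes tested in both states lie mostly along the horizontal axis, though Ifit1 is far below it, and most of the 25 appeared genes tested in both lie below it near the vertical axis, with Trib3 and Pck2 lowest.

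The counts moved with single libraries. Cultured libraries are numbered as in the deposited table and naive ones as in the sample titles. The 906 calls in culture became 54 without W250S library 2, 62 without WT library 3, 89 without W250S library 1, 365 without W250S library 3 and 2110 without WT library 2. In naive cells the 513 calls became 203 without W250S library 2, 208 without W250S library 1 and 329 without W250S library 3. The 129 calls for the difference became 41, 47 and 50 without cultured WT library 3, W250S library 1 and W250S library 2. They became 74 without naive W250S library 1 and 247 without naive WT library 3. The 90 persisting genes became 13, 16, 23 and 43 without cultured W250S library 2, WT library 3, W250S library 1 and W250S library 3, and 48 and 52 without naive W250S libraries 2 and 1. The 64 vanished genes became 26, 29 and 31 without cultured WT library 3, W250S library 1 and W250S library 2, 33 and 38 without naive W250S libraries 1 and 3, and 103 without naive WT library 3. The 41 appeared genes became 9, 11 and 12 without cultured WT library 3, W250S library 2 and W250S library 1, 27 without naive W250S library 1, 75 without cultured WT library 2 and 88 without naive WT library 3. Genes called with each library left out in turn, and under all other settings tried, are named as such below, with the settings in which they fell under the filter on low values and were not tested.

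Among genes that stayed higher in W250S, Ppic, which encodes the peptidyl-prolyl isomerase cyclophilin C, had the largest effect common to both states. Naive WT libraries held 3.4, 2.17 and 2.75 CPM and naive W250S libraries 9.42, 8.09 and 7.75 CPM. After culture WT libraries held 4.05, 4.74 and 2.5 CPM and W250S libraries 10.8, 10.2 and 10.2 CPM. The genotypes did not overlap in either state. The effect was 1.33 ± 0.14 (SE) in naive cells (adjusted p = 1.47e-05) and 1.29 ± 0.15 in culture (adjusted p = 0.00192), and the difference of effects was -0.04 ± 0.22 (adjusted p = 0.957).

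Ptgir, the receptor for prostacyclin, was at 4.61, 5.6 and 2.71 CPM in naive WT and at 17.8, 14.2 and 21.4 CPM in naive W250S libraries. In culture it was at 10.7, 11.3 and 12.5 CPM in WT and 24, 24.1 and 22.3 CPM in W250S. All W250S libraries lay above all WT libraries of the same state, with an effect of 1.85 ± 0.18 in naive cells (adjusted p = 3.92e-06) and 0.97 ± 0.08 in culture (adjusted p = 0.000225). Crtam, an adhesion receptor of activated T cells, rose by 0.84 ± 0.12 in naive cells (adjusted p = 0.000409) and 0.83 ± 0.11 in culture (adjusted p = 0.00311), while its WT mean went from 4.55 to 27.7 CPM. Dapl1 went the other way with culture, from a WT mean of 20.4 to 1.71 CPM, and its effect was 0.89 in naive and 0.72 in cultured cells. Dst (dystonin, a cytoskeletal linker), Emilin1 (an extracellular matrix glycoprotein), Ston1, Zfp365, Wfikkn2 and Zfp827 completed the 10 largest among genes with a group mean of at least 5 CPM, with effects of 0.63 to 1.07 in naive cells and 0.65 to 0.73 in culture. For Ppic, Ptgir, Crtam and Dapl1 the calls in both states held under every alternative setting and without any 1 library, except that Dapl1 was not tested in culture at a minimum of 5 CPM.

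Of the genes that stayed lower, Ncf4 had the largest effect common to both states. It encodes p40phox, a cytosolic subunit of the phagocyte NADPH oxidase. Naive WT libraries held 4.94, 5.98 and 5.91 CPM against 1.22, 1.93 and 2.16 CPM in W250S, and cultured WT libraries 4.8, 4.49 and 4.91 CPM against 1.49, 1.75 and 1.5 CPM. The level in WT thus hardly moved with culture, and the genotypes were apart in both states (-1.27 ± 0.15, adjusted p = 4.08e-05, and -1.15 ± 0.10, adjusted p = 0.000225). The summed myeloid markers, given above, were also lower in W250S in both states; each of the 3 was at or below 1.37 CPM in every library, and their part in the result was not tested.

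Prr13 was at 16.2, 16.2 and 17.6 CPM in naive WT and 6.21, 6.67 and 5.89 CPM in naive W250S libraries. It was higher in culture in both genotypes, at 41.2, 45.9 and 43.2 CPM in WT and 22.2, 22.4 and 23.6 CPM in W250S. Its effect was -1.28 ± 0.11 and -0.90 ± 0.07, with adjusted p = 2.11e-06 and 0.000165. Hsd17b11, an enzyme of lipid droplets, had a WT mean of 13.5 CPM in naive and 2.24 CPM in cultured cells, and was lower in W250S by -1.28 and -0.91 (adjusted p = 3.39e-06 and 0.0047). Pkp3 (plakophilin, a desmosome protein), Man2b2 (a lysosomal mannosidase), Pqlc3, Fam174b, Galnt12 (which starts O-glycan chains), Tnfrsf13b (TACI, a receptor for BAFF and APRIL) and Zbtb8a had effects of -0.53 to -1.32 in naive cells and -0.53 to -0.84 in culture. The calls of Prr13 and Pkp3 held in both states under every setting and without any 1 library. Those of Ncf4 and Hsd17b11 held wherever they could be tested, which left out a minimum of 5 CPM for Ncf4 in both states and for Hsd17b11 in culture, and the omission of any cultured WT library for Hsd17b11 in culture.

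The persisting effects were mostly larger in naive cells, in 78 of the 90 genes, with a median of 0.707 in naive and 0.429 in cultured cells for the 57 higher genes and of -0.638 and -0.549 for the 33 lower ones. Genes enter this class by a call in each state, and naive calls had larger effects. Among genes tested in both states, the median absolute effect was 0.585 for naive calls and 0.35 for cultured calls. Over all 11498 such genes it was 0.119 and 0.113. The larger naive sizes in this class are therefore not read as a result. In 6 of the 57 higher genes the naive WT mean was below 1 CPM, so they could pass the naive filter through W250S libraries alone. In 4 of the 90 persisting genes the loss of size was itself called: Coro2a (an actin-binding coronin), Rhob (a small GTPase), Gpc1 (the cell-surface proteoglycan glypican) and H2-Q6 (a non-classical class I molecule). Rhob went from 8.82, 16.4 and 13.8 CPM in naive WT to 33.6, 44.4 and 60.7 CPM in naive W250S libraries. In culture the same gene was at 5.52, 7.67 and 6.92 against 8.92, 9.54 and 11.3 CPM. The genotypes stayed apart while the effect went from 1.75 to 0.51, a difference of -1.25 ± 0.27 (adjusted p = 0.0338). That of Gpc1 was -1.18 (adjusted p = 0.00118), and Coro2a fell from 1.97 to 0.46. The difference of Rhob lost its call under 10 of 21 alternatives (adjusted p up to 0.109) and that of Coro2a under 8 of 21, including each other scaling (up to 0.0895). The smaller effects in culture were themselves lost under 7 of 15 alternatives for Rhob and 8 of 15 for Coro2a. H2-Q6 and H2-Q7 are near-identical copies of 1 gene family, so the division of reads between them is uncertain.

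**Figure D2:**
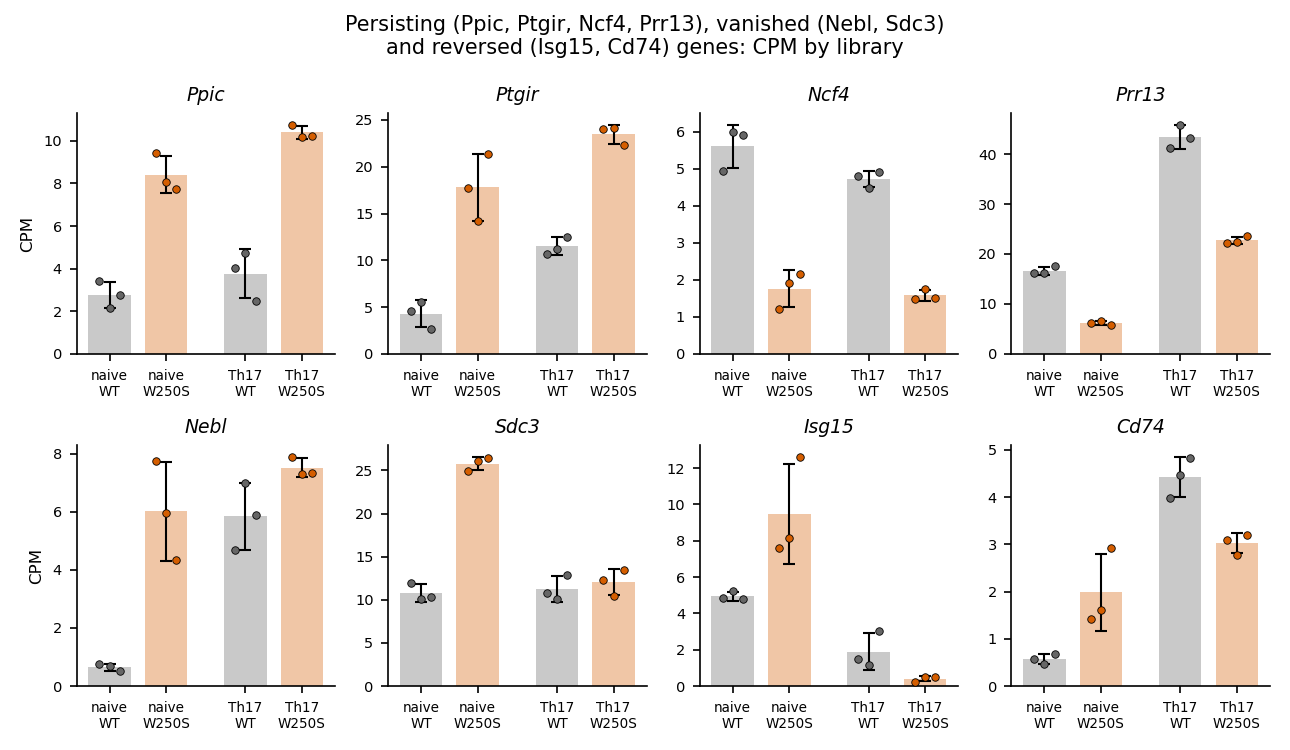
CPM of 8 genes in each of the 12 libraries (vertical axis, linear from 0); bars are means of 3 libraries, error bars their SD, points single libraries, grey WT and orange W250S. Ppic and Ptgir are higher, and Ncf4 and Prr13 lower, in W250S in both states; the genotypes of Nebl and Sdc3 part widely in naive cells only, by 2.06 and 1.18 on the log2(CPM + 1) scale, and Isg15 and Cd74 change order between the states.

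Vanished effects were led by Nebl, which encodes nebulette, an actin-binding protein. It was at 0.744, 0.705 and 0.515 CPM in naive WT and at 7.76, 5.94 and 4.33 CPM in naive W250S libraries. Cultured libraries held 4.69, 7 and 5.87 CPM in WT and 7.89, 7.31 and 7.35 CPM in W250S. In naive cells the genotypes were far apart (2.06 ± 0.17, adjusted p = 7.64e-07), and in culture WT came close to W250S (0.33 ± 0.12, adjusted p = 0.105), a difference of -1.73 ± 0.22 (adjusted p = 0.000832).

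Nlgn2 and Ybx3 followed the same course, with a WT level that rose in culture. Ybx3, a cold-shock domain protein that binds RNA, was at 1.5, 1.68 and 1.46 CPM in naive WT and 3.68, 4.2 and 4.76 CPM in naive W250S, then at 142 to 149 CPM in cultured WT and 147 to 163 CPM in cultured W250S libraries. Its effect was 1.03 in naive cells and 0.11 in culture (difference -0.92 ± 0.13, adjusted p = 0.00118; not called with a pseudocount of 5, adjusted p = 0.0552). The effect of Nlgn2 (neuroligin, a cell adhesion protein) went from 1.37 to 0.22. Sdc3, a heparan sulfate proteoglycan of the syndecan family, kept its WT level and lost the effect: 12, 10.1 and 10.4 CPM in naive WT, 24.9, 26.1 and 26.4 CPM in naive W250S, 10.8, 10.1 and 12.9 CPM in cultured WT and 12.3, 10.5 and 13.5 CPM in cultured W250S libraries. The naive libraries did not overlap and the cultured ones did. The calls of Sdc3, Ptms and Gprasp2, in naive cells and for the difference, held under every setting, as did those of Nebl and Nlgn2 for the difference. The naive calls of Nebl and Nlgn2 held wherever they could be tested, which left out a minimum of 5 CPM for both and the omission of any naive W250S library for Nebl.

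In other vanished genes the transcript was lost with the effect. Of the 55 vanished genes higher in naive W250S cells, 17 had a cultured WT mean below 1 CPM, and 28 had a lower WT mean in culture than in naive cells. For these 17 the loss of the effect and of the transcript cannot be told apart. Tlr7, the endosomal receptor for single-stranded RNA, was at 6.16, 6.38 and 4.29 CPM in naive WT and 14.1, 12.2 and 16.8 CPM in naive W250S libraries (1.22 ± 0.14, adjusted p = 4.08e-05), and at 0.501 to 1.21 CPM in culture. Its difference of -0.99 was lost under 7 of 21 alternatives (adjusted p up to 0.182). Sp6, Gprasp2 and Prg4 (lubricin) were alike in this, with cultured WT means of 0.44, 0.70 and 0.86 CPM. Across the 39 of these 55 genes tested in both states, the effect had the same sign in 14. The median effect was 0.746 over the 55 in naive cells and -0.06 in culture over those tested there. The class is defined by a naive call, no call in culture and a called difference, so a small cultured median is built in. In 10 of the 55 genes the naive WT mean was below 1 CPM, Nebl among them. Such genes can pass the naive filter through the W250S libraries alone, as Nebl did, and their higher direction is then built in.

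Of the 9 vanished genes that were lower in naive W250S cells, Antxr2, a receptor for anthrax toxin and for collagen VI, moved furthest. It was at 25.7, 20.2 and 24.4 CPM in naive WT and 15.5, 12.7 and 16 CPM in naive W250S, and at 6.91, 10.5 and 7.38 CPM in cultured WT and 11.2, 12.1 and 10.4 CPM in cultured W250S libraries. The naive groups were apart and the cultured groups overlapped, with effects of -0.63 ± 0.12 (adjusted p = 0.00464) and 0.42 ± 0.13 (adjusted p = 0.065), and a difference of 1.05 ± 0.19 (adjusted p = 0.0114) that held under every setting. Without naive W250S library 2 the naive call was lost (adjusted p = 0.0549). The Wnt receptor Fzd5 went from -0.51 to 0.47, the p38 kinase gene Mapk11 from -0.89 to -0.21, Sh3bgrl from -1.20 to -0.27, Inafm2 from -0.86 to -0.24 and Frrs1 from -0.64 to 0.08. None of these 5 differences was called without cultured W250S library 1 or 2 or WT library 3, and that of Mapk11 lay at the threshold (adjusted p = 0.05).

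Interferon-stimulated genes had mostly positive W250S effects in naive cells and mostly negative ones in culture. Of 46 tested members, 14 were higher and 1 lower in naive W250S cells, beside 3.29% and 0.856% of all genes. The median effect of the 46 was 0.35 beside 0.0738 for all genes, and 43 of the 46 effects were positive. Over the 30 members also tested in culture the naive median was 0.23. In culture these 30 were testable, of which 5 were lower and none higher, beside 2.94% and 4.13% of all genes. The cultured median was -0.21 beside 0.0361, and 26 of the 30 effects were negative. The difference of effects was called negative for 12 and positive for 1 of 46, with a median of -0.61 beside -0.045 for all genes and 0.786% of all genes called negative. The list was known from earlier results of these data to be raised in naive cells, so its counts are a description. With other scalings 9 members were called higher in naive cells, 10 or 11 lower in culture and 9 or 10 negative for the difference. In bulk RNA, fewer cells that make a transcript and less of it per cell cannot be told apart.

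Isg15, a ubiquitin-like modifier induced by interferon, was called in both states in opposite directions. It was at 4.82, 5.24 and 4.77 CPM in naive WT and 7.59, 8.17 and 12.6 CPM in naive W250S libraries (0.79 ± 0.15, adjusted p = 0.00461). After culture it was at 1.49, 1.15 and 3.06 CPM in WT and 0.246, 0.477 and 0.487 CPM in W250S (-0.997 ± 0.20, adjusted p = 0.0204). W250S libraries were all above WT in naive cells and all below in culture, and the difference of -1.78 ± 0.27 (adjusted p = 0.0035) held under every setting. The cultured call was lost without W250S library 1 or 2 (adjusted p up to 0.0965), and it could not be tested without any of the WT libraries or at a minimum of 5 CPM, since Isg15 then fell under the filter.

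Ifit1, which binds foreign RNA, was at 23.8, 25.3 and 23.1 CPM in naive WT and 32.9, 37.3 and 46.4 CPM in naive W250S libraries. In culture it was at 1.46, 1.8 and 5.22 CPM in WT and 0.884, 0.397 and 1.1 CPM in W250S. Its effect was 0.66 ± 0.12 in naive cells (adjusted p = 0.00305) and -0.99 ± 0.28 in culture (adjusted p = 0.0564), with a difference of -1.64 ± 0.34 (adjusted p = 0.0258), not called without naive W250S library 2 or 3 or cultured W250S library 1 or 2 (adjusted p up to 0.0895). The naive call was lost in a fit over all 12 libraries (adjusted p = 0.107). Cultured WT library 3 held the highest level of both Isg15 and Ifit1 among the cultured libraries. Zbp1, a sensor of Z-form nucleic acids, was at 29.7, 34.8 and 37.9 against 42.6, 44.9 and 55.3 CPM in naive and at 7.82, 9 and 9.62 against 5.37, 6.42 and 6.67 CPM in cultured libraries. Its effects were 0.47 and -0.46, and the difference of -0.92 ± 0.16 (adjusted p = 0.0114) held under every setting, while the naive call was lost under each other scaling (adjusted p up to 0.175).

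The calls for the difference among interferon-stimulated genes also took in Oas3, Iigp1, Ifi44, Ifit3b, Mx1, Oasl2, Xaf1, Gbp5 and Ifi27l2a. In 14 of the 46 members the cultured WT mean was below 1 CPM, and in 40 it was lower in culture than in naive cells. The naive WT mean was below 1 CPM in 1 member, Mx1, which reached 1 CPM in naive W250S libraries alone. Iigp1, an immunity-related GTPase, rose from 25.2, 18 and 21.3 to 35.4, 43.3 and 58.7 CPM in naive cells (1.04 ± 0.15, adjusted p = 0.000368) and overlapped between genotypes in culture (-0.12 ± 0.18). Its difference lost its call under 14 of 21 alternatives, each other scaling included (adjusted p up to 0.153). Gbp5, a guanylate-binding protein, was called only in culture, at 25.9, 28.5 and 36.6 CPM in WT and 16, 15.8 and 23.7 CPM in W250S (-0.70 ± 0.15, adjusted p = 0.0234). Without cultured WT library 3, W250S library 1 or W250S library 2 that call was lost (adjusted p up to 0.133). Ifit1bl1, a paralogue of Ifit1, was the exception in naive cells, at 75.2, 59.3 and 75.4 CPM in WT and 30.8, 26.2 and 37.2 CPM in W250S (-1.14 ± 0.13, adjusted p = 2.51e-05), and at most 0.159 CPM in culture. Reads of the Ifit and Oas genes can be split between close paralogues.

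The list's calls rested on few libraries. Without naive W250S library 2 or 3 the naive count of 14 became 7 or 8. Without cultured W250S library 1, W250S library 2 or WT library 3 the cultured count of 5 became 0, and without WT library 1 it became 12. The 12 calls for the difference became 5 to 7 without any 1 of these first 5 libraries. Of 7 class II genes, which mark antigen-presenting cells, 5 were in both tables, and their summed level was 8.22 to 8.67 CPM in naive WT, 11.3 to 15 CPM in naive W250S, 8.14 to 9.4 CPM in cultured WT and 6.06 to 6.88 CPM in cultured W250S libraries. H2-DMa made up most of the naive sum, and H2-Ab1 was at most 0.415 CPM in naive libraries. Their part in the result was not tested. Among them Cd74, the invariant chain, was the third named gene of the reversed class, at 0.476 to 0.687 against 1.42 to 2.92 CPM in naive and 3.99 to 4.83 against 2.78 to 3.2 CPM in cultured libraries (0.89 and -0.43; difference -1.32 ± 0.21, adjusted p = 0.00459). The cultured call of Cd74 was lost without cultured W250S library 1, 2 or 3 or WT library 3 (adjusted p up to 0.144). In naive cells Cd74 reached 1 CPM in the W250S libraries alone. Its naive call could therefore not be tested without any of those libraries or at a minimum of 5 CPM. The last of the 4 reversed genes was the numbered gene model Gm7357.

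**Figure D3:**
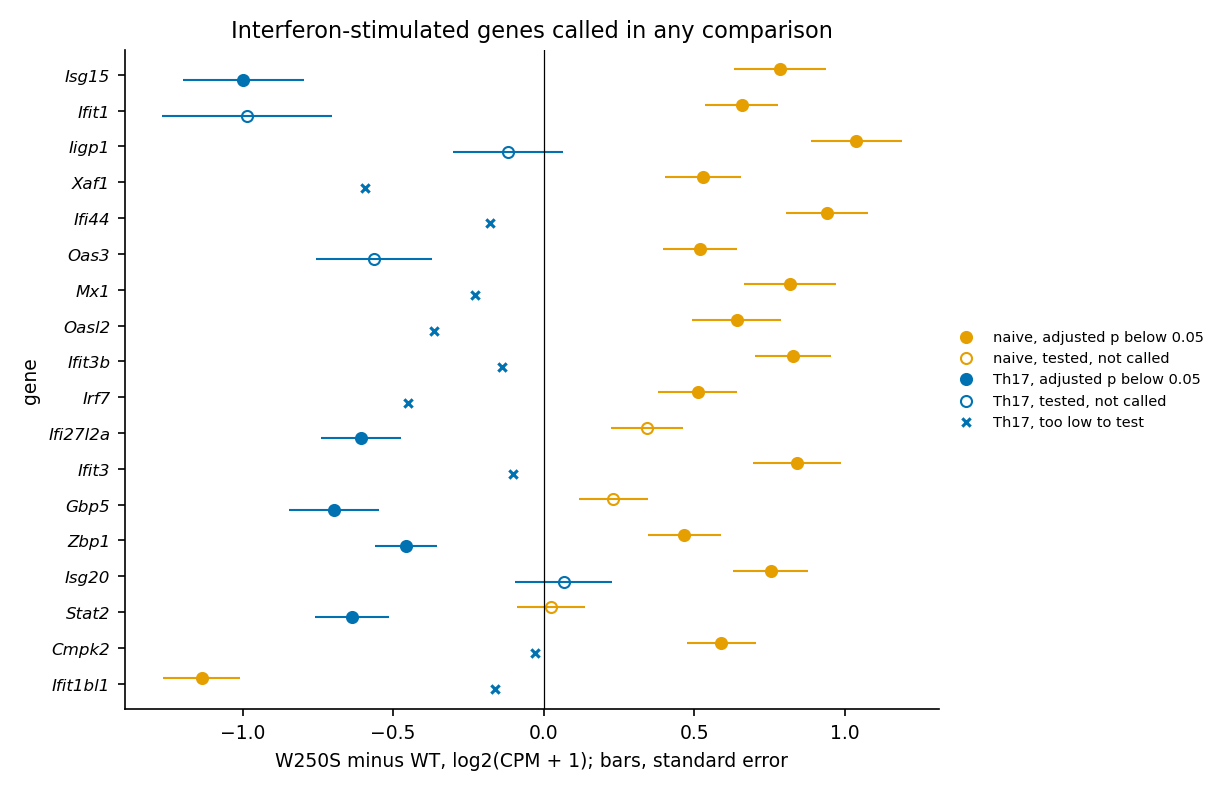
W250S minus WT in log2(CPM + 1) (horizontal axis) for the 18 interferon-stimulated genes called in any comparison, ordered by the difference of effects; orange is naive cells, blue cultured cells, and bars are standard errors. In naive cells 14 of the 18 are called above 0 and 1 below, and the cultured values of the genes that could be tested there lie below 0, except that of Isg20; crosses mark genes too low to test in culture.

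The promoters of 2 of these genes show the sequence that interferon-activated factors are known to bind. The 250 bases before the RefSeq start are printed 5′ to 3′ on the gene's strand (GRCm38.p6), with matches of a pair of GAAA blocks parted by any 2 bases, on either strand and with overlapping matches merged, in capitals.
Isg15 (chr4:156200819-156201068, - strand): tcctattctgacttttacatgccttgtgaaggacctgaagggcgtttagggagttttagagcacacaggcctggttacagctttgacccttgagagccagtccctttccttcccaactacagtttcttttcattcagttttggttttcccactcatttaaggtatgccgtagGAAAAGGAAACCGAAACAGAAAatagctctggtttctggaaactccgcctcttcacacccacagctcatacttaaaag
Ifit1 (chr19:34640639-34640888, + strand): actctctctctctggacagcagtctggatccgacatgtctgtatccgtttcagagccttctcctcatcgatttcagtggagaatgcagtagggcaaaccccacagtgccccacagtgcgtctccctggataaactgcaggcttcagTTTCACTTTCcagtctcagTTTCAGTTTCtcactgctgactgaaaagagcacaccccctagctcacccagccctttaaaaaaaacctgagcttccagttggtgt
Isg15 held 3 overlapping matches and Ifit1 held 2. Of all 27025 genes with a RefSeq promoter of this length, 3.46% held a match in at least 1 promoter. An entry was found for 35 of the 46 tested list members, and no share over the list is given. A match is a description of these letters and not evidence of binding.

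Among effects that appeared in culture, the largest increase was that of Il1a, the cytokine interleukin-1 alpha. Naive libraries were listed at 0 to 0.0935 CPM. Cultured WT libraries held 1.22, 1.94 and 0.895 CPM and cultured W250S libraries 7.85, 9.81 and 6.45 CPM, with no overlap. The effect in culture was 1.95 ± 0.17 (adjusted p = 0.000225) and the difference 1.87 ± 0.215 (adjusted p = 0.000832), and both held under every setting.

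Il17f, a signature cytokine of Th17 cells, was at 20.6, 28.3 and 14.2 CPM in cultured WT and 58.5, 68.1 and 41.9 CPM in cultured W250S libraries, and at most 0.152 CPM in naive ones. All W250S cultures lay above all WT cultures (1.40 ± 0.21, adjusted p = 0.00546; without W250S library 2, 1.25 with adjusted p = 0.0626), with a difference of 1.44 ± 0.26 (adjusted p = 0.0117; 0.0949 with a pseudocount of 0.1). Il1r1, the signalling receptor for interleukin-1, rose with it, from 3.08, 4.76 and 2.79 CPM in WT to 7.56, 9.76 and 8.79 CPM in W250S (1.11 ± 0.15, adjusted p = 0.00311), and its difference of 1.09 was also lost with that pseudocount (adjusted p = 0.226). Il17a was listed in the cultured table alone, so it is outside the genes compared. There it was at 3.04, 3.44 and 2.5 CPM in WT and 11.9, 8.25 and 5.72 CPM in W250S (1.22 ± 0.19, adjusted p = 0.00692). Il23r, also in the cultured table alone, did not pass (0.32 ± 0.13, adjusted p = 0.139). Of 8 tested Th17 cytokines and receptors 3 were higher in culture, namely Il17f, Il1r1 and the gp130 subunit Il6st (0.29, adjusted p = 0.0234; lost under 6 of 15 alternatives), beside 4.13% of all genes called higher. Il21 was not called (-0.20, adjusted p = 0.09).

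Il2, the T cell growth factor, was at 48.9, 47.9 and 36.4 CPM in cultured WT and 92.7, 80 and 67.1 CPM in cultured W250S libraries. The groups were apart (0.83 ± 0.12, adjusted p = 0.00531; 0.0588 without W250S library 2), and the difference of 1.04 ± 0.17 (adjusted p = 0.00778) held under every setting. Pdgfb, a platelet-derived growth factor chain, was at 65.7, 64.9 and 52.9 against 121, 112 and 97.6 CPM (0.84 ± 0.09, adjusted p = 0.00134). Its naive libraries held 0 to 0.265 CPM, and with a pseudocount of 0.1 the difference of effects went from 0.69 to -0.0471 (adjusted p = 0.965), and it was lost under 10 other alternatives. The receptor tyrosine kinase gene Axl rose by 0.70 ± 0.07 in culture (adjusted p = 0.000346), and its difference of 0.83 was lost under 4 of 21 alternatives, among them without cultured W250S library 1 or 2 or WT library 3 (adjusted p up to 0.134). Ehd2, Atp1b1 (a sodium pump subunit), Mast4 and Slc19a2 (a thiamine transporter) rose by 0.90, 0.93, 0.71 and 0.49. Of the 12 appeared genes that were higher in W250S, 8 had a naive WT mean below 1 CPM, so for these the effect appeared together with the transcript. The same held for 8 of the 29 that were lower, Asns and Il12rb2 among them.

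**Figure D4:**
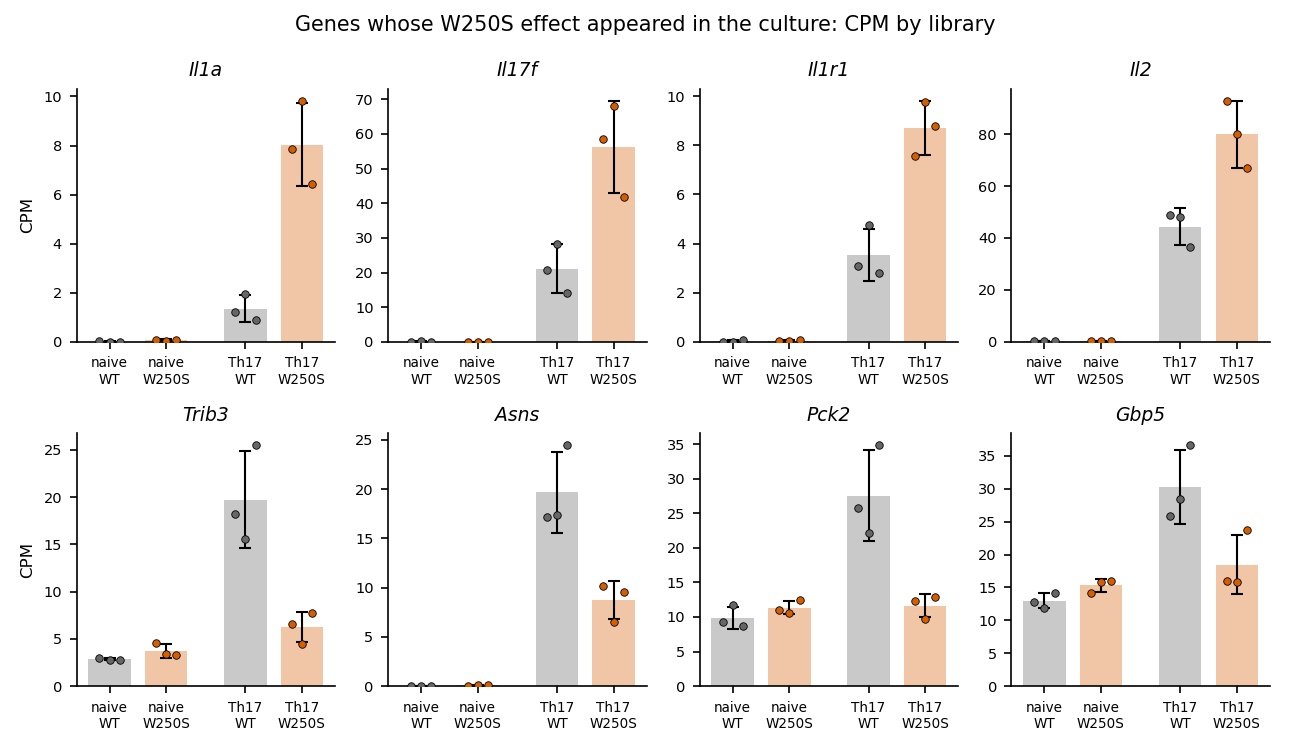
CPM of 8 genes whose W250S effect appeared in culture, in each of the 12 libraries (vertical axis, linear from 0); bars are means of 3 libraries, error bars their SD, points single libraries, grey WT and orange W250S. Il1a, Il17f, Il1r1 and Il2 are near 0 in naive cells and higher in W250S than in WT cultures; Trib3, Asns, Pck2 and Gbp5 are lower in W250S cultures.

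The largest fall among the appeared genes was that of Trib3. This gene, a pseudokinase induced by amino-acid and endoplasmic reticulum stress, was at 2.96, 2.76 and 2.79 CPM in naive WT and 4.54, 3.37 and 3.27 CPM in naive W250S libraries. In culture it was at 18.2, 15.6 and 25.5 CPM in WT and 6.56, 4.47 and 7.69 CPM in W250S. Cultured WT libraries held the highest levels, and cultured W250S libraries lay below all of them, with an effect of 0.29 ± 0.14 in naive cells (adjusted p = 0.302) and -1.52 ± 0.18 in culture (adjusted p = 0.00192). The difference was -1.81 ± 0.24 (adjusted p = 0.00118).

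Asns, which makes asparagine, was at most 0.0829 CPM in naive libraries and at 17.1, 17.4 and 24.4 CPM in cultured WT against 10.2, 6.52 and 9.53 CPM in cultured W250S libraries (-1.09 ± 0.16, adjusted p = 0.00475). Pck2, the mitochondrial PEP carboxykinase, was at 9.2, 11.7 and 8.76 against 11, 10.6 and 12.4 CPM in naive cells, where the genotypes overlapped. In culture it was at 25.8, 22.1 and 34.8 against 12.2, 9.7 and 12.9 CPM (-1.16 ± 0.14, adjusted p = 0.00259), a difference of -1.35 ± 0.20 (adjusted p = 0.00322). The calls of Trib3, Asns and Pck2, in culture and for the difference, held under every setting and without any 1 library. Gpt2 (alanine transaminase) and Pycr1 (a proline-making reductase) fell by 1.06 and 0.75 in culture, calls that were lost without WT library 3 (and, for Pycr1, without W250S library 1 or 2; adjusted p up to 0.0858 for Pycr1 and 0.0701 for Gpt2), while their differences of -1.46 and -1.14 held wherever they could be tested, which for Pycr1 left out a minimum of 5 CPM.

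Of the list of 30 tested amino-acid stress genes and targets of the transcription factor ATF4, 18 were lower and none higher in W250S cultures, with a median of -0.31 beside 0.0361 for all genes and 2.94% of all genes called lower. In naive cells none of 27 was called, and the median was 0.14. The difference was called negative for 3 of 30 (Trib3, Asns and Pycr1) and was below 0 in 29, with a median of -0.39. The serine enzymes Psph, Phgdh and Psat1 fell by 0.67, 0.40 and 0.19 in culture, the one-carbon enzymes Shmt2 and Mthfd2 by 0.38 and 0.25, the transporter genes Slc1a4, Slc3a2 and Slc7a5 by 0.70, 0.35 and 0.32, and the aminoacyl-tRNA synthetase genes Gars, Sars, Nars and Aars by 0.41, 0.33, 0.33 and 0.26. Cebpb, Cebpg and Aldh18a1 also passed. Atf4 itself was not called (WT mean 287 and W250S mean 258 CPM; -0.15, adjusted p = 0.106), nor was the arginine transporter gene Slc7a1 (-0.06). The count of 18 became 3, 4 and 5 without cultured W250S library 2, WT library 3 and W250S library 1, and 5 in a fit over all 12 libraries. The list had shown lower values in earlier results of these data, and its count is a description.

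**Figure D5:**
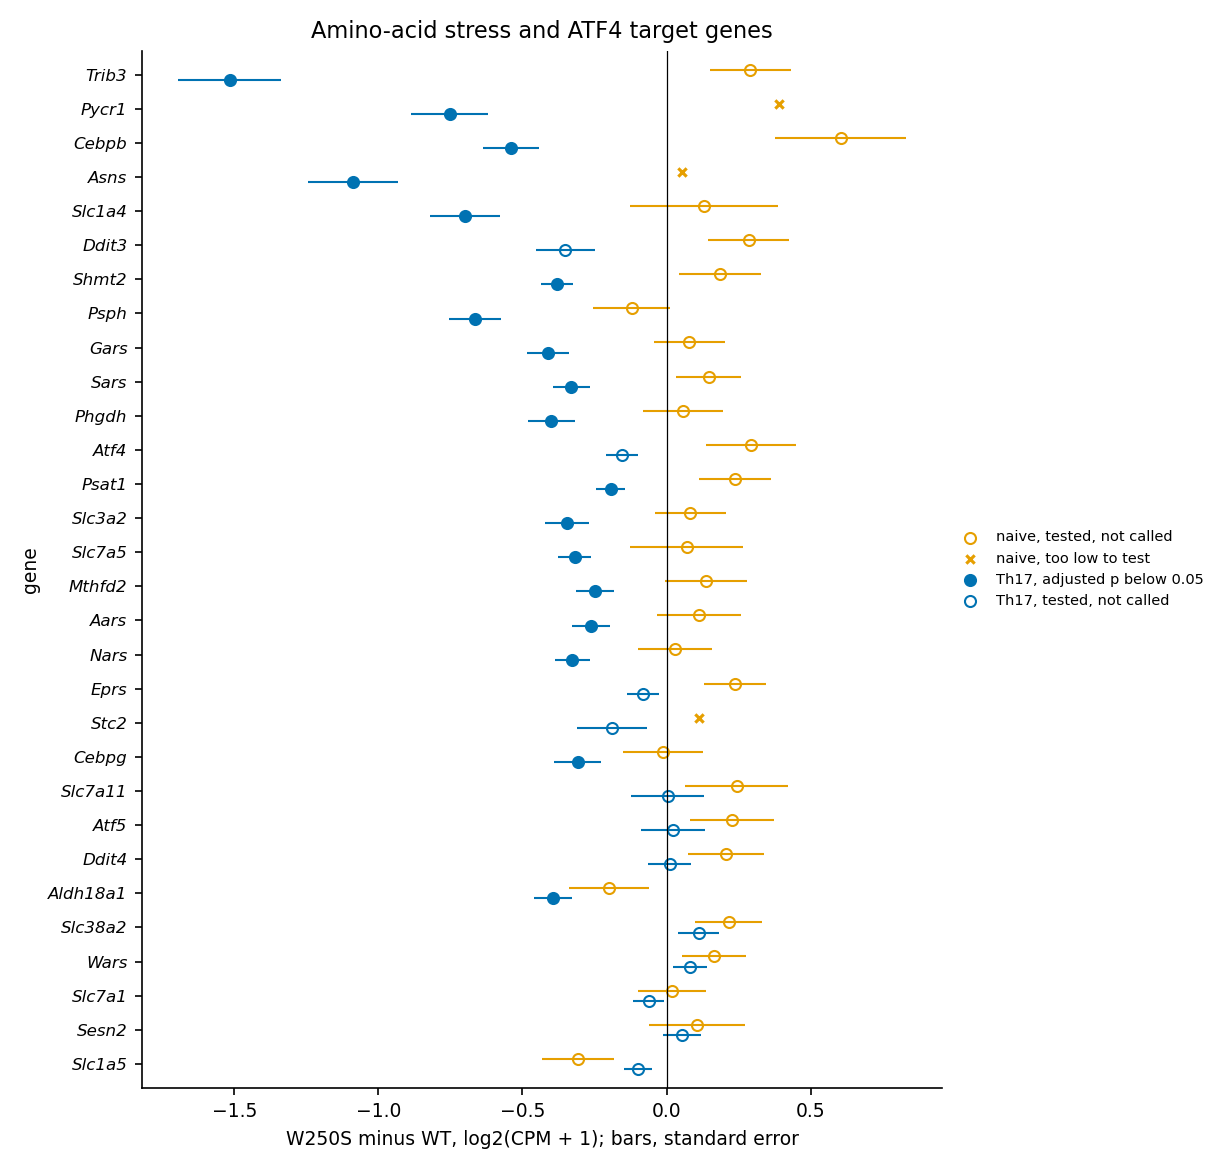
W250S minus WT in log2(CPM + 1) (horizontal axis) for the 30 tested amino-acid stress and ATF4 target genes, ordered by the difference of effects; orange is naive cells, blue cultured cells, bars are standard errors. In culture 18 are called, all below 0, and none of the 27 tested in naive cells is called.

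The promoters of Asns, Pck2 and Pycr1 are shown because they hold a match of TGATGNAA, the form of the element that ATF4 is known to bind, on either strand (in capitals). The 250 bases before the RefSeq start are given as above.
Asns (chr6:7693210-7693459, - strand): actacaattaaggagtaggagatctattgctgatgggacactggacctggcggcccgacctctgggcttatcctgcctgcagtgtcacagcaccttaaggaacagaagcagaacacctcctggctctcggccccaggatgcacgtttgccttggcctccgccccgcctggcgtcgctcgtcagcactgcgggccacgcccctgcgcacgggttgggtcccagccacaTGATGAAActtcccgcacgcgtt
Pck2 (chr14:55540016-55540265, + strand): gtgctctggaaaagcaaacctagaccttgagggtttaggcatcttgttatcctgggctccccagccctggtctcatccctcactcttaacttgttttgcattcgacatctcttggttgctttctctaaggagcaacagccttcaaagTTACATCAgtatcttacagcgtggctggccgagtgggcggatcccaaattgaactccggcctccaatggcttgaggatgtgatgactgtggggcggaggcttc
Pycr1 (chr11:120643749-120643998, - strand): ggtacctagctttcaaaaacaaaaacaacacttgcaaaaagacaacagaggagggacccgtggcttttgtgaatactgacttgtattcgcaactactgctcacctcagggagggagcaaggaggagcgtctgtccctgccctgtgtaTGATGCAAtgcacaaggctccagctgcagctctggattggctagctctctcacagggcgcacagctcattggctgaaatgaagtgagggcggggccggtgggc
Of the 26 list members with an entry, 5 (19.2%) held this motif in at least 1 promoter, beside 3.91% of all 27025 genes with a promoter. These were 4 of the 16 called lower in culture and 1 of the 10 not called there. The list was drawn up from known targets of ATF4 among others, so its share says nothing of the W250S effect. Pck2 and Gpt2 are not on the list. Trib3 and Gpt2 held no match in these 250 bases, which says nothing of sequence elsewhere.

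The other lists moved less, and mostly in 1 state. Ribosomal protein genes were called lower in W250S cultures for 13 of 32 (among them Rps14 by 0.42, Rpl32 by 0.41 and Rps18 by 0.40; list median -0.20), beside 2.94% of all genes, and for none in naive cells (median 0.05), and the difference was called for none. That count became 1, 1, 4 and 6 without cultured WT library 3, W250S library 1, W250S library 3 and W250S library 2, and 3 without a mean-variance trend. Ribosomal protein genes have many processed pseudogenes that can share reads. Rps2 and Rplp0, the most abundant members not called, had effects of -0.02 and -0.13.

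Beside the shares of all genes called (3.29% higher in naive cells, 2.94% lower in culture and 0.786% with a negative difference), genes of class I antigen presentation gave 2 calls higher in naive cells, H2-Q7 (0.61, adjusted p = 0.002) and the class I transactivator Nlrc5 (0.51), and 2 lower in culture, the immunoproteasome subunit Psmb8 (-0.33) and Tapbp (-0.35), of 14 tested. The difference was called for H2-Q7, Psmb8 and Psmb9 (-0.65, -0.57 and -0.74), and these calls were lost under 13, 11 and 8 of 21 alternatives, each among them without naive W250S library 1 or 3, cultured W250S library 1 or 2 or cultured WT library 3 (adjusted p up to 0.146). H2-Q7 also lost it under each other scaling. H2-K1 and B2m were called in neither state. Cholesterol synthesis gave 5 of 25 lower in culture, among them Fdps (-0.47) and Mvd (-0.37), and 1 higher in naive cells, Tm7sf2 (0.55). The difference was called for these 3 (-0.68, -0.81 and -0.75) and lost under 5 of 21, 3 of 21 and 7 of 20 alternatives, each among them without cultured W250S library 1 or WT library 3 (adjusted p up to 0.109). Of genes of glycolysis and HIF-1 targets, 4 of 26 were higher in naive cells (Ndrg1 by 0.58, Tpi1 by 0.42 and Bnip3 by 0.60 among them), a count of 1 under each other scaling, and 3 of 33 were lower in culture. The difference was called for Ndrg1 (-0.86) and Tpi1 (-0.55), in neither without cultured W250S library 1 or 2 or WT library 3 (adjusted p up to 0.109). Pkm and Ldha were called in neither state.

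In culture 6 of 18 apoptosis genes were higher and 1 was lower in W250S, beside 4.13% and 2.94% of all genes, as for the counts in culture that follow. The higher ones were Bcl2l1 (0.40), Bcl2a1b and Bcl2a1d (0.23 and 0.59), which protect cells, and Fasl (0.61), Pmaip1 (0.47) and the death receptor gene Tnfrsf10b (0.52), which promote death, and the lower one was Casp8 (-0.30). None of 16 was called in naive cells and none for the difference. Among 21 TNF superfamily genes 4 were higher in culture (Tnfsf4 by 0.87, Tnfsf11 by 0.68, Fasl and Tnf) and 3 lower (Tnfrsf9 by 0.66, Tnfrsf18 and Tnfrsf13b). In naive cells 1 of 17 was called in each direction, beside 3.29% of all genes higher and 0.856% lower. Of 26 Th17 transcription factor genes 3 were higher in culture (Id3 by 0.64, Nfkbiz by 0.53 and Gfi1 by 0.27) and 3 lower (Sox4, Fosl2 and Arid5a), and Sox4 was also lower in naive cells (-0.63 and -0.51). Of 22 T cell activation markers 3 were higher in culture (Cd44 by 0.64, Pdcd1 by 0.41 and Il2) and 2 lower (Tnfrsf9 and Tnfrsf18). The list median was 0.049 beside 0.0361 for all genes, and Il2ra and Irf4 were not called. The call of Id3 held under every setting. Those of Bcl2a1d, Fasl, Tnfrsf10b, Tnfsf4, Nfkbiz, Cd44, Pdcd1, Pmaip1, Tnfsf11, Tnfrsf9 and, in culture, Sox4 were lost under 2 to 8 alternatives, each among them without WT library 3 (adjusted p up to 0.175). Il12rb2, a subunit of the IL-12 receptor, appeared lower in culture, at 12.2, 17.2 and 20 CPM in WT and 6.8, 7.26 and 10.9 CPM in W250S (-0.91 ± 0.17, adjusted p = 0.0165). Its difference of -0.98 was lost under 12 of 21 alternatives (adjusted p up to 0.153). Of 12 TGF-beta response genes the feedback inhibitors Smad7 and Ski were higher in culture by 0.30 and 0.23, calls lost under 8 and 7 of 15 alternatives, among them without any of the W250S libraries or without WT library 3 (adjusted p up to 0.188). Of 11 in naive cells Pmepa1 and Gpr83 were higher by 0.78 and 0.74, under every setting, beside 3.29% of all genes called higher there.

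Klf4, a Krüppel-like factor linked to ELF4 in CD8 T cells, was at 0.644, 3.26 and 1.31 CPM in naive WT and 3.03, 6.39 and 6.02 CPM in naive W250S libraries. The groups overlapped, and the effect of 1.23 ± 0.26 (adjusted p = 0.00828) was lost under each other scaling and without naive W250S library 2 (adjusted p up to 0.151). In culture there was none (0.00), and the difference was not called (-1.23 ± 0.36, adjusted p = 0.108). Klf2 was called in neither state (0.16 and -0.44, adjusted p = 0.536 and 0.19). The immediate early gene Fosb varied widely in naive libraries, at 1.62, 22.6 and 14 CPM in WT and 19.5, 60.9 and 45.4 CPM in W250S. It was called (2.00 ± 0.51, adjusted p = 0.0285) but not under any other scaling. Naive WT library 1 was also far below the other WT libraries for Fos (14.9 against 131 and 119 CPM) and Jun (63.9 against 407 and 352 CPM). So it was for Hspa1a (24.9 against 307 and 672 CPM). Of 12 heat shock genes 1 was called higher in naive cells, and all 12 effects were positive (median 0.37). The part of that library in these effects was not tested. Immediate early genes called higher in naive cells numbered 3 of 24 as scaled by the authors, beside 3.29% of all genes, and 0 otherwise. The difference of Fosb from culture was not called (adjusted p = 0.138).

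The pathogenic culture, driven by IL-23 and IL-1b beside IL-6, came from the same labelled sources as the non-pathogenic one, so the 2 cultures are not independent, and 2.07% of 12780 genes were called there, 1.17% lower. Of the persisting genes, 20 of the 56 higher and 21 of the 32 lower ones that could be tested were called there in the same direction, and 54 and 32 had the same sign. Of the 12 appeared genes that were higher, 6 were called in the same direction, and of the 29 that were lower, 2. Of the 41 vanished genes that were higher in naive cells and could be tested there, none was called in that direction, and of 7 lower ones 1 was. Trib3, Asns and Pck2 had effects of -0.40, -0.10 and -0.44 there (adjusted p = 0.318, 0.811 and 0.263), and none of 30 amino-acid stress genes was called lower. Of 32 interferon-stimulated genes 13 were called lower there, with a median of -0.55. The difference between the cultures was not tested.

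None of the persisting, reversed, vanished or appeared genes with a RefSeq position lay within 10 Mb of Elf4. Only 55 of the 12411 tested genes with a position lie there, so their absence is not read as a result. Of the persisting genes 2 of 88 (2.27%) were on the X chromosome and of the vanished genes 6 of 63 (9.52%), beside 4.25% of all tested genes with a position. None of 40 appeared genes was.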

How the data were processed

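RNA of 12 libraries of the W250S set (3 WT and 3 W250S in each state) was analysed from 2 tables of CPM deposited by the authors; the pathogenic table was used for comparison. Per the submitters' processing notes the build is mm10 and the tools, with no role given, are Partek (10.0.21.0411), DESeq2, Bowtie2, MACS2 and BWA; the aligner and counter of the RNA are not given in the sources used here. The CPM of a library sum to 489232 to 542992, so the authors' scaling covers more than the genes listed. Low values lie on steps of 1 read for 43.1% to 48.7% of entries (tolerance 0.05 of a step), as when reads are shared between genes, so whole reads could not be recovered and no count test was run. The depth in reads is therefore not given.

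Genes reaching 1 CPM in 3 or more libraries were fitted per table with limma (version 3.58.1, R 4.3.3) after a log2(CPM + 1) transform, using moderated variances with a mean trend, two-sided, with Benjamini-Hochberg adjustment over all genes tested. The difference of effects was fitted over the 12 libraries and the genes in both tables; the tables were normalized separately, so levels are compared across them only as deposited. Gene names turned into dates (19 and 20) were left out. Fits were tested on simulated data. Genes, lists and comparisons were chosen with earlier results of these data known. Named genes are key genes of the study; among genes with a group mean of at least 5 CPM, up to 10 each way per class; and up to 4 called and 2 abundant uncalled members per list. Gm7357, Gpc1, H2-Q6 and further list members were named after their values were seen. Alternatives were other pseudocounts, filters, scalings, variance models and each library left out.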

Additional observations from a re-analysis of the deposited data

Results flagged for a closer look

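The W250S effect differed between non-pathogenic Th17 and naive cells for 129 genes in limma's test of the difference. The values that follow are that difference, cultured minus naive, in log2(CPM + 1). Among named genes whose naive effect was higher and vanished, it was -1.73 for Nebl, -1.64 for Ifit1, -1.42 for Gprasp2, -1.33 for Sp6, -1.16 for Nlgn2, -1.16 for Iigp1, -1.09 for Sdc3, -0.987 for Tlr7, -0.987 for Ptms, -0.983 for Prg4, -0.921 for Ybx3, -0.864 for Ndrg1, -0.755 for Tm7sf2, -0.652 for H2-Q7 and -0.554 for Tpi1. Among genes that appeared lower in culture, it was -1.81 for Trib3, -1.46 for Gpt2, -1.35 for Pck2, -1.14 for Pycr1, -1.14 for Asns, -1.04 for Phf11b, -0.979 for Il12rb2, -0.949 for Ifi27l2a, -0.926 for Gbp5, -0.843 for Pde4d, -0.813 for Crem, -0.808 for Mvd, -0.682 for Fdps and -0.567 for Psmb8. Of the reversed genes it was -1.78 for Isg15, -1.32 for Cd74 and -0.924 for Zbp1, and of the persisting genes that shrank -1.52 for Coro2a and -1.25 for Rhob. With neither effect called alone it was -0.755 for Vegfb and -0.743 for Psmb9. Among genes whose naive effect was lower and vanished, it was 0.625 for Inafm2, 0.681 for Mapk11, 0.722 for Frrs1, 0.924 for Sh3bgrl, 0.975 for Fzd5, 0.976 for Ifit1bl1 and 1.05 for Antxr2. Among genes that appeared higher in culture, it was 0.686 for Pdgfb, 0.831 for Axl, 0.849 for Slc19a2, 0.868 for Atp1b1, 0.934 for Mast4, 1.03 for Ehd2, 1.04 for Il2, 1.09 for Il1r1, 1.44 for Il17f and 1.87 for Il1a.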

How the results depend on the processing

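Fits with counts, with DESeq2 among them, were not run, since whole reads could not be recovered. Of 202 calls on named genes, 72 were kept under every alternative in which the gene could be tested, 130 were lost under at least 1, and 1 was reversed, the difference for Pdgfb with a pseudocount of 0.1 (-0.0471, adjusted p = 0.965). The cause of the changes below was not tested. Of the 513 naive calls, 329 were left with no filter on low values and 988 were made in a fit over 12 libraries. Of the 906 cultured calls, 379 were left without a mean-variance trend and 235 in the fit over 12 libraries, and 1706, 1719 and 1724 were made with median-ratio scaling, TMM and centring on the median gene, the last chosen after seeing the data. The 129 calls for the difference became 1193 with array weights (176 positive, 1017 negative), 85 without a filter and 221 with a pseudocount of 5. The 90 persisting genes became 51 at a minimum of 5 CPM and 58 without a filter. The 64 vanished genes became 113 with a pseudocount of 5. The 41 appeared genes became 72 with median-ratio scaling or TMM, 74 when centred and 70 with a pseudocount of 5. The 4 reversed genes became 2 at a minimum of 5 CPM or without a trend, 1 without a filter and 7 under each other scaling. Leaving out 1 library in turn gave 203 to 556 naive calls, 54 to 2110 cultured calls, 41 to 247 calls for the difference, and 13 to 116 persisting, 0 to 9 reversed, 26 to 103 vanished and 9 to 88 appeared genes; where an arm had 2 libraries the spread came from the pooled fit. In naive cells, titles give both genotypes the same numbers and state no pairing. Same-numbered libraries deviated together at r = 0.179, 0.0233 and 0.329, and the best match was number 1, 1 and 3. These values do not settle whether the libraries were paired. A replicate block gave 1256 naive calls, beside 513 without it. No paired analysis was possible because the cultured columns carry no title number, for culture and for the difference. Genes below 1 CPM in a state could not be tested there.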
